A study of Mus musculus with 6 samples.

Results

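Collagens are the main structural proteins of the arterial wall, and the 34 genes described here are the collagen chains together with enzymes and helper proteins that modify, fold, trim and cross-link them. They were chosen by name: every gene called Col, a number, a and a number, plus the lysyl oxidase family genes Lox, Loxl1, Loxl2 and Loxl3, the lysyl hydroxylase genes Plod1, Plod2 and Plod3, the prolyl hydroxylase genes P4ha1 and P4ha2, the chaperone gene Serpinh1 and the procollagen C-proteinase enhancer gene Pcolce. Of 8690 gene names in the table, 23 were collagens and 11 were enzymes or helpers. All 34 had a mean of at least 1 FPKM (fragments scaled to transcript length and to the total of the library) over the 6 samples and were tested. A further 21 collagen genes in the mouse annotation, among them Col2a1, Col4a3 and Col4a4, were not analysed here.

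RNA was sequenced from the aorta of 6 aged mice of the C57BL/6 strain: 3 were wild type (WT), numbered 2, 4 and 8, and 3 lacked Sirt2 (Sirt2-KO), numbered 4, 7 and 8, and values are given in that order. Neither the kind of Sirt2 allele nor the age in months is stated in the sources used here. The targeted gene, Sirt2, a deacetylase that uses NAD, was at 26.5, 34.1 and 49.2 FPKM in the WT aortas and 2.56, 3.32 and 2.23 FPKM in Sirt2-KO (adjusted p = 0.00156). Summed FPKM per aorta lay between 367271 and 396438 over the genes listed. With FPKM alone, the sequencing depth behind each value is unknown.

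Collagen chains share a repeat of glycine and other residues, rich in proline, that lets 3 chains wind into a helix. Fibrillar collagens, chiefly types I and III in arteries, are secreted as procollagens, trimmed at both ends and cross-linked into fibres in the media and adventitia. Basement membrane collagens, chiefly type IV, keep their end domains and form a sheet under endothelial cells and around smooth muscle cells. Other collagens decorate fibrils, form beaded filaments or short-chain networks, or span cell membranes.

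The collagen classes differed in their counts of higher and lower genes, where 42.1% of all tested genes had a difference above 0. Of 7 fibrillar genes, 4 were higher in Sirt2-KO aortas, among them both type I chains, and 3 were lower. All 6 basement membrane genes were lower, although Col15a1 differed by only -0.01 on the log2 scale. Among 10 other collagens 7 were higher, among them Col14a1, Col16a1 and Col8a2, and among 11 enzymes and helpers 6 were higher. Only Pcolce passed the test, which used limma on log2(FPKM + 1) with p-values adjusted by Benjamini-Hochberg across 8605 genes and called at 0.05. Thus 1 member was called higher and 0 lower, while 2.91% of all tested genes were called, 2.29% higher and 0.616% lower. In all, 17 of the 34 members had a difference above 0, against 42.1% of all tested genes.

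At an unadjusted p under 0.05, 8 members were higher and 4 lower, where 12.4% of all tested genes were higher and 12.4% lower. The 4 lower members were the 4 type IV chains that were analysed. The 3 WT values and the 3 Sirt2-KO values lay apart in 15 members (44.1%), 9 higher and 6 lower, against 33.3% of all tested genes, 16.0% higher and 17.3% lower. Col8a2 and Col6a6, among the 9 higher, reached the mean of 1 FPKM needed for testing only through Sirt2-KO. The median log2 difference was 0.55 over fibrillar genes, -0.55 over basement membrane genes, 0.24 over other collagens and 0.01 over enzymes and helpers. Over all tested genes it was -0.08. The fibrillar median was the value of Col3a1, the middle of the 7 genes, whose groups overlapped. Members share the same 6 aortas, so these class values are descriptions and carry no test.

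**Figure D1:**
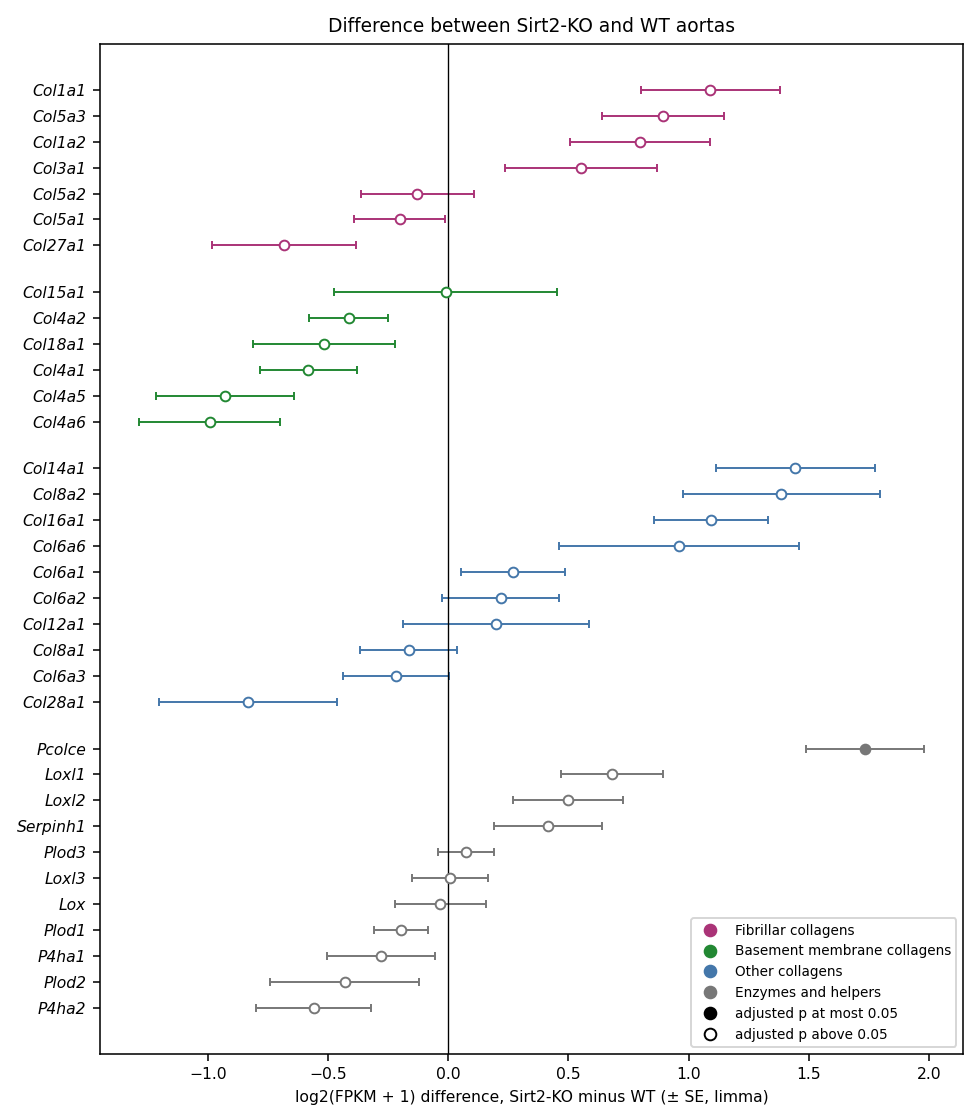
Difference in log2(FPKM + 1) between 3 Sirt2-KO and 3 WT aortas for each of the 34 genes, with the standard error from limma as bars and colours for the 4 classes. Filled points passed an adjusted p of 0.05: Pcolce is the only filled point, and all 6 basement membrane genes lie below 0.

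Class shares of summed collagen FPKM separated the genotypes in every aorta, and the most abundant genes weigh most in such shares. Fibrillar genes made up 36.2%, 31.9% and 37.5% of summed collagen FPKM in WT replicates 2, 4 and 8. In Sirt2-KO replicates 4, 7 and 8 they made up 46.2%, 54.0% and 52.9%. Every Sirt2-KO aorta was thus above every WT aorta. Basement membrane genes went the other way, with 46.9%, 50.0% and 44.2% in WT and 35.3%, 25.8% and 26.2% in Sirt2-KO. The share of other collagens was 16.9%, 18.0% and 18.3% in WT and 18.5%, 20.1% and 20.9% in Sirt2-KO, so here too the genotypes lay apart, by a narrow margin.

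In absolute terms the fibrillar sum was 726 ± 234 FPKM in WT and 1160 ± 203 FPKM in Sirt2-KO (SD, n = 3 each). Col1a1, Col1a2 and Col3a1 together held 631 FPKM of it in WT and 1073 FPKM in Sirt2-KO. The fibrillar share thus rests mainly on these genes, while Col5a1, Col5a2 and Col27a1 were lower in Sirt2-KO. The basement membrane sum was 949 ± 210.3 FPKM in WT and 660.0 ± 141 FPKM in Sirt2-KO, and here the groups overlapped because WT replicate 4 stood at 714 FPKM and Sirt2-KO replicate 4 at 798 FPKM. Type IV alone, at 411 to 490.5 FPKM in WT and 250.3 to 382 FPKM in Sirt2-KO, did not overlap. Col18a1 alone averaged 448 FPKM in WT and 305 FPKM in Sirt2-KO, and its groups overlapped. All collagens together were at 2034 ± 529 FPKM in WT and 2269 ± 305 FPKM in Sirt2-KO, so the total differed by less than the spread between mice.

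**Figure D2:**
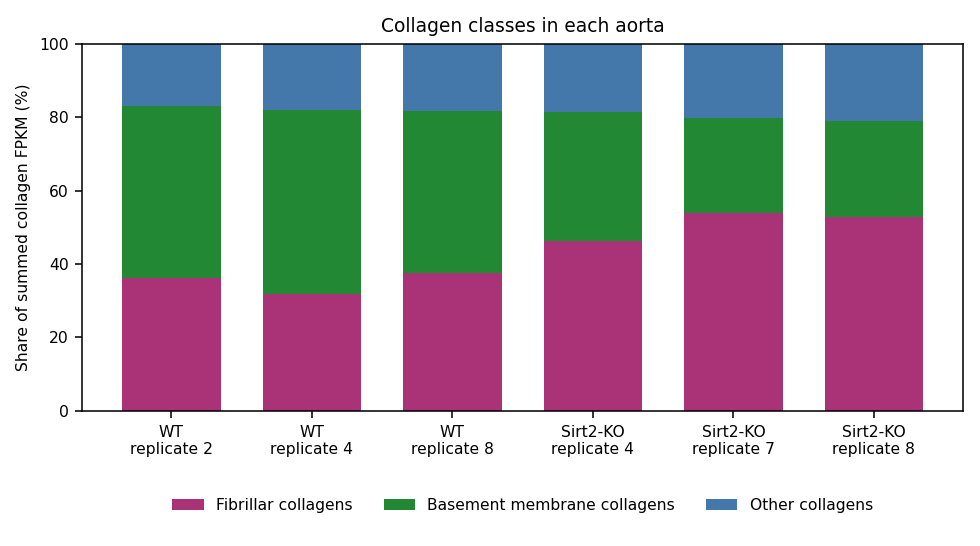
Share of the summed collagen FPKM held by fibrillar, basement membrane and other collagens in each of the 6 aortas, in percent. The fibrillar share is at most 37.5% in WT and at least 46.2% in Sirt2-KO, while the basement membrane share is at least 44.2% in WT and at most 35.3% in Sirt2-KO.

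Type I collagen, the stiff fibre of the adventitia and media, was higher in both chains. Col1a1, which encodes its alpha 1 chain, was at 215, 107 and 213 FPKM across WT aortas 2, 4 and 8, against 312, 427 and 358 FPKM across Sirt2-KO aortas 4, 7 and 8. The groups did not overlap, and WT replicate 4 lay well below the other WT aortas. The log2 difference was 1.09 (SE 0.289), a ratio of means of 2.05, and it missed the threshold (adjusted p = 0.0905).

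Col1a2, the alpha 2 chain, was at 292, 154 and 314 FPKM in the WT aortas and 380.3, 515 and 382 FPKM in Sirt2-KO. Again the groups lay apart with WT replicate 4 lowest. The log2 difference was 0.80 (SE 0.291, adjusted p = 0.158). Col3a1, the chain of type III collagen, a thinner and more extensible fibre partner, was at 248, 115 and 232 FPKM in the WT aortas and 258, 352 and 233 FPKM in the Sirt2-KO aortas. Its groups overlapped, since Sirt2-KO replicate 8 stood between WT replicates 8 and 2, and the log2 difference of 0.55 (SE 0.316) had an adjusted p of 0.303.

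Col3a1 was the middle of the 7 fibrillar genes, so its difference was also their median. Without WT replicate 4 this difference was 0.20. That aorta also had the highest level of heart muscle markers: the summed level of 7 such genes was 543 FPKM in it and 59.1 to 74.9 FPKM in the other 5 aortas. It was the lowest of the WT aortas in 23 of the 34 members. The part of heart muscle tissue in the low collagen values was not tested.

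The chains of the main fibres differed between genotypes by unequal amounts. Col3a1 stood at 1.15, 1.08 and 1.09 times Col1a1 in WT replicates 2, 4 and 8 and at 0.827, 0.824 and 0.650 times Col1a1 in Sirt2-KO replicates 4, 7 and 8. The ratio was below that of every WT aorta in all 3 Sirt2-KO aortas, with a log2 difference of -0.54. Col1a1 over Col1a2, the chains of the same type I trimer, was 0.738, 0.694 and 0.677 in WT and 0.821, 0.829 and 0.938 in Sirt2-KO, a log2 difference of 0.29. Both had p = 0.1 in an exact two-sided permutation test, the smallest that 3 against 3 allows (adjusted p = 0.15 over 3 ratios). Among WT aortas these log2 ratios had SDs of 0.0527 and 0.0635, although WT replicate 4 was the lowest in all 3 genes. Among Sirt2-KO aortas the SDs were wider, at 0.199 and 0.107. Type IV gave no such separation, with Col4a1 over Col4a2 at 0.997, 1.32 and 1.06 in WT and 1.15, 0.904 and 0.943 in Sirt2-KO (p = 0.4, exact permutation, two-sided).

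**Figure D3:**
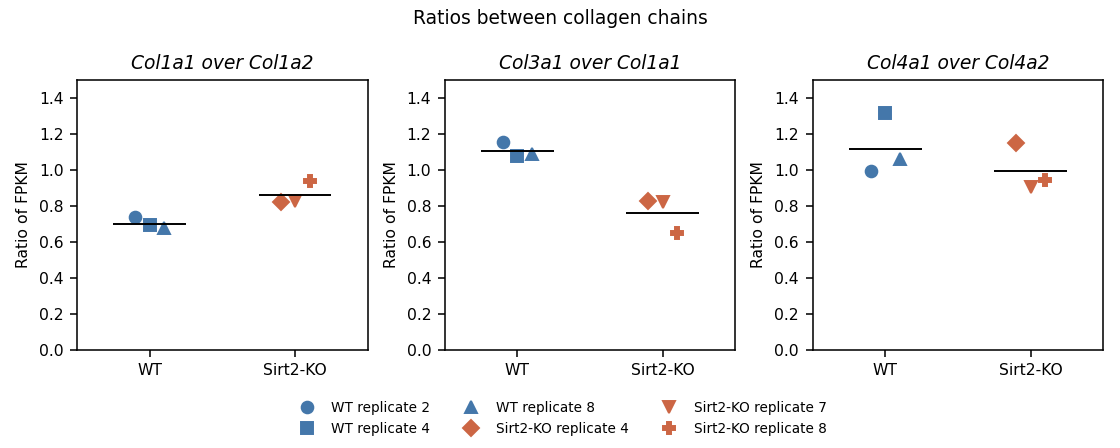
Ratios of FPKM between collagen chains in each aorta, with the geometric mean of each genotype as a line. The Col3a1 to Col1a1 ratio is at least 1.08 in WT and at most 0.827 in Sirt2-KO, and the Col1a1 to Col1a2 ratio is at most 0.738 in WT and at least 0.821 in Sirt2-KO, while the Col4a1 to Col4a2 ratios overlap.

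Minor fibrillar chains, which set fibril diameter or serve special tissues, split. Col5a3, a type V chain, was at 3.26, 4.23 and 2.34 FPKM in the WT aortas and 5.13, 8.28 and 7.33 FPKM in Sirt2-KO, so that the groups lay apart (log2 difference 0.89, SE 0.253, adjusted p = 0.104). The more abundant type V chains, Col5a1 and Col5a2, which nucleate type I fibrils, overlapped between genotypes. Col5a1 was at 52.9 ± 8.25 FPKM in WT and 46.1 ± 9.05 FPKM in Sirt2-KO (SD, n = 3 each), a log2 difference of -0.20, and Col5a2 differed by -0.13 (adjusted p = 0.513 and 0.736). Col27a1, a chain best known from cartilage, was at 4.46, 4.62 and 2.41 FPKM in the WT aortas and 1.575, 2.29 and 2.001 FPKM in Sirt2-KO. Its values also lay apart, in the lower direction (log2 difference -0.68, SE 0.299, adjusted p = 0.215).

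Upstream sequences are shown for a pair of higher fibrillar genes, the type IV pair with the larger differences, and Pcolce. They come from RefSeq start sites on GRCm38.p6, which held 25 of the 34 members, and bases within annotated exons were left out. Capitals mark CCAAT and GGGCGG, searched with TATAAA on both strands in the 250 bases before each start. Over 32851 mouse start sites, CCAAT was found in 33.8% of such windows, GGGCGG in 32.7% and TATAAA in 12.4%. The 27 windows of the matched members held GGGCGG in 19, CCAAT in 8 and TATAAA in 2. The CCAAT match of Col1a2 and the GGGCGG matches of Pcolce and Col4a5 lie nearer the start, outside the stretches printed. A match is a string of letters and not a measured binding site.
Col1a2 (chr6:4505370-4505492, plus strand, ending 126 bases before the start): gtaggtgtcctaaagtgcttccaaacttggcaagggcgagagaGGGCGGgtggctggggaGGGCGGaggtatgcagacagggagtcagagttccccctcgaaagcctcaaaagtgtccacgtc
Col5a3 (chr9:20815068-20815317, minus strand, ending 1 bases before the start): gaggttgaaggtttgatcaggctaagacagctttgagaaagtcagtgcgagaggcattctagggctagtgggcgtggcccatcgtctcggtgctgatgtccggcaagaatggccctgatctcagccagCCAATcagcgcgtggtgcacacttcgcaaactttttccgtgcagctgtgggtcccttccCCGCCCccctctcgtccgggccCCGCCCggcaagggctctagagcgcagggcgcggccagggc
Col4a6 (chrX:141474077-141474326, minus strand, ending 1 bases before the start): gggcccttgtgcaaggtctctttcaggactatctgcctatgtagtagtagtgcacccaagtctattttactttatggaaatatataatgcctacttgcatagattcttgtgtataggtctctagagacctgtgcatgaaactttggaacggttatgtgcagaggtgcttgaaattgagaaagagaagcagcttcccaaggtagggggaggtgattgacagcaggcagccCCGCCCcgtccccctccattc
Col4a5 (chrX:141475169-141475384, plus strand, ending 35 bases before the start): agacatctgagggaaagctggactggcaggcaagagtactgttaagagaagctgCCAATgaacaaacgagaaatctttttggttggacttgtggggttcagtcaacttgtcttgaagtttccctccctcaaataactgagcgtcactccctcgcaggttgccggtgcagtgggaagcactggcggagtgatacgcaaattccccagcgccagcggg
Pcolce (chr5:137611488-137611654, minus strand, ending 84 bases before the start): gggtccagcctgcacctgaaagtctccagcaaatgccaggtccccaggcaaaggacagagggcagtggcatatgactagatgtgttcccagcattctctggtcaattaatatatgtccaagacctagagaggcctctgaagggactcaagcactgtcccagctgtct

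Type IV collagen, the network of basement membranes, was lower in all 4 chains analysed. Its genes lie in head-to-head pairs that start close together on opposite strands. Col4a1 and Col4a2, the chains of the common network, share the first 22 bases of their annotated transcripts on chromosome 8. Col4a5 and Col4a6, chains of a second network found in smooth muscle and kidney, start 1343 bases apart on chromosome X, and their upstream sequences are those printed above.

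Col4a6 was at 33.6, 17.6 and 31.7 FPKM in the WT aortas and 16.04, 14.4 and 9.18 FPKM in Sirt2-KO. Every Sirt2-KO aorta was below every WT aorta, narrowly so for WT replicate 4. The log2 difference was -0.99 (SE 0.293, adjusted p = 0.111). Its partner Col4a5 was at 33.9, 21.9 and 36.0 FPKM in the WT aortas and 17.8, 19.8 and 10.01 FPKM in Sirt2-KO, which again did not overlap (log2 difference -0.93, SE 0.288, adjusted p = 0.1199). These genes matched each other closely, with means of 27.6 ± 8.73 and 30.6 ± 7.62 FPKM in WT and of 13.2 ± 3.58 and 15.9 ± 5.15 FPKM in Sirt2-KO.

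Col4a1 spread little in WT, at 211, 211 and 194 FPKM. In Sirt2-KO it was at 186, 123 and 112 FPKM, so replicate 4 came close to WT and the others did not (log2 difference -0.58, SE 0.201, adjusted p = 0.146). Col4a2 was at 212, 160.3 and 183 FPKM in the WT aortas and 162, 136 and 119 FPKM in the Sirt2-KO aortas. Here WT replicate 4 lay just below Sirt2-KO replicate 4, so the groups overlapped by that single pair (log2 difference -0.41, SE 0.166, adjusted p = 0.186). None of these passed in the test used here with all 6 aortas. Weighting the aortas by their quality (arrayWeights) called Col4a1 (adjusted p = 0.0316) and Col4a6 (adjusted p = 0.0368). That setting called 1114 of 8605 genes, against 250 in the main fit. With equal weights, Col4a1 was called without Sirt2-KO replicate 4 (log2 difference -0.80, adjusted p = 0.0349) and Col4a6 without WT replicate 4 (log2 difference -1.28, adjusted p = 0.0483). Those omissions called 344 and 269 genes in all. Col4a1 and Col4a6 were each called in 2 of the 17 alternative settings.

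Col18a1 and Col15a1 encode multiplexin collagens of the basement membrane zone, and Col18a1 is the source of the fragment endostatin. Col18a1 was the highest basement membrane gene, at 549.8, 281 and 514 FPKM in the WT aortas and 362, 319.5 and 234 FPKM in Sirt2-KO. WT replicate 4 lay below 2 Sirt2-KO aortas, and the log2 difference of -0.52 (SE 0.295) did not pass (adjusted p = 0.303). Col15a1 ranged more widely in WT, from 21.5 to 79.1 FPKM, than in Sirt2-KO, from 31.5 to 54.9 FPKM. Its log2 difference was -0.01 (adjusted p = 0.991), with opposite signs depending on which aorta was left out, from -0.53 to 0.38. Col18a1 shares 8825 bases with Slc19a1 on the other strand, and the use of strand in counting is not given in the sources used here, so reads there cannot be told apart. The same holds for 1297 bases of Loxl3 with Htra2 and 1003 bases of Plod3 with Znhit1.

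**Figure D4:**
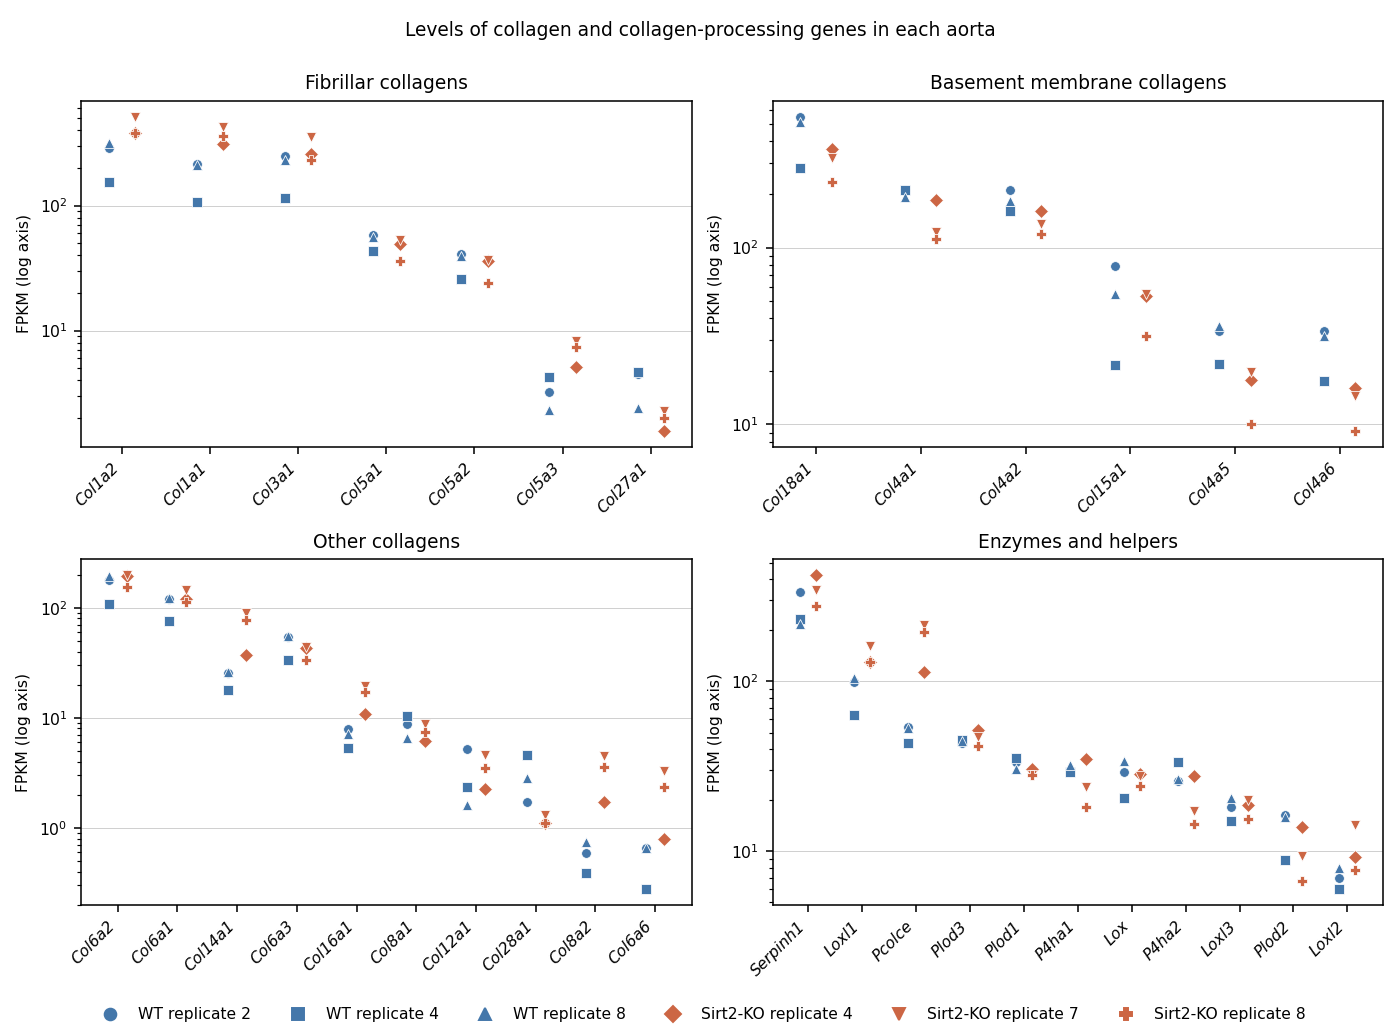
FPKM of each gene in each aorta on a log axis, by class and ordered by mean level, with WT in blue and Sirt2-KO in orange and a symbol for each mouse. The groups lie apart for Col1a1 and Col1a2 in the upper direction and for Col4a1, Col4a5 and Col4a6 in the lower direction, and WT replicate 4 is the lowest WT aorta in 23 of the 34 genes.

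Of the 3 collagens that sit on fibril surfaces (FACIT collagens), Col14a1 and Col16a1 lay apart in the higher direction. Col14a1, which binds fibrils through decorin, was at 25.3, 18.0 and 26.3 FPKM in the WT aortas and 37.5, 90.1 and 77.6 FPKM in Sirt2-KO. The groups lay apart, with Sirt2-KO replicate 4 nearest to WT. The log2 difference was 1.44 (SE 0.330), and it missed the threshold (adjusted p = 0.0688). Col16a1, a FACIT chain of microfibrils and fibrils, was at 7.94, 5.35 and 7.06 FPKM in the WT aortas and 10.9, 19.3 and 17.3 FPKM in Sirt2-KO, with the same order of the Sirt2-KO aortas (log2 difference 1.09, SE 0.238, adjusted p = 0.0614). Without Sirt2-KO replicate 4 both were called, with log2 differences of 1.82 (adjusted p = 0.0159) and 1.33 (adjusted p = 0.0288). That omission called 344 of 8600 genes, against 250 of 8605 with all 6 aortas. Each of these FACIT chains was called in 2 of the 17 alternative settings. Col12a1, the remaining FACIT chain, overlapped between genotypes (log2 difference 0.20, adjusted p = 0.753).

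Low collagens of other kinds also lay apart. Col8a2, a short-chain network collagen of the vessel wall and cornea, was at 0.591, 0.388 and 0.745 FPKM in the WT aortas and 1.72, 4.496 and 3.60 FPKM in Sirt2-KO (log2 difference 1.39, SE 0.411, adjusted p = 0.112). The chain Col8a1, its partner in the family, was at 8.55 ± 1.90 FPKM in WT and 7.47 ± 1.28 FPKM in Sirt2-KO and overlapped. Col6a6 was at 0.657, 0.276 and 0.651 FPKM in the WT aortas and 0.792, 3.28 and 2.36 FPKM in Sirt2-KO, where replicate 4 was barely above WT (log2 difference 0.96, SE 0.499, adjusted p = 0.267). Col28a1, a chain found around peripheral nerves, was at 1.71, 4.555 and 2.83 FPKM in the WT aortas and 1.10, 1.31 and 1.10 FPKM in Sirt2-KO. It lay apart in the lower direction (log2 difference -0.83, SE 0.370, adjusted p = 0.217). At such levels a pseudocount of 1 makes the log2 difference smaller than the change in FPKM. With WT means of 0.575 and 0.528 FPKM, Col8a2 and Col6a6 reached the mean of 1 FPKM only through Sirt2-KO. No row had a variance under 1.00003, so genes this low were listed only where their values spread. Lying apart at these levels was thus partly set by these filters.

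The abundant type VI chains, which form beaded filaments around cells, differed in mean between genotypes by less than the SD among WT mice. Col6a1 was at 106 ± 26.7 FPKM in WT and 126 ± 17.4 FPKM in Sirt2-KO, a log2 difference of 0.27 (SE 0.216, adjusted p = 0.447). Col6a2 was at 160.2 ± 46.5 and 182 ± 24.5 FPKM (0.22, SE 0.243, adjusted p = 0.575), and Col6a3 at 47.6 ± 12.3 and 40.1 ± 5.91 FPKM (-0.22, SE 0.221, adjusted p = 0.541). For each chain WT replicate 4 was the lowest WT aorta. A p that misses the threshold does not show that the levels were equal.

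Among enzymes and helpers, Pcolce rose and was the only member called. Its protein binds the C-propeptide of procollagens and speeds its removal by the proteinase BMP1. Pcolce was at 54.0, 43.1 and 53.4 FPKM across WT aortas 2, 4 and 8, against 114, 214 and 194 FPKM across Sirt2-KO aortas 4, 7 and 8. The groups lay far apart, and Sirt2-KO replicate 4 lay between the WT aortas and the other Sirt2-KO aortas. The means were 50.2 ± 6.11 and 174 ± 52.8 FPKM (SD, n = 3 each), 3.47-fold, with a log2 difference of 1.73 (SE 0.246, adjusted p = 0.0228).

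The rise came from several rows of the table, which carry no transcript names. Pcolce had 8 rows. The row with the highest mean was at 48.2, 29.8 and 47.0 FPKM in the WT aortas and 94.8, 61.9 and 38.2 FPKM in Sirt2-KO, which overlapped. The next was at 1.54, 0.842 and 1.07 FPKM in the WT aortas and 10.3, 106 and 98.3 FPKM in Sirt2-KO. Sirt2-KO replicates 7 and 8 thus owed most of their sum to rows that were low in every WT aorta, whereas replicate 4 owed its to the row that was also highest in WT. With the highest row alone the log2 difference was 0.56 and did not pass (adjusted p = 0.368). The call was also lost without WT replicate 2 (adjusted p = 0.0723), Sirt2-KO replicate 7 (0.0989) or Sirt2-KO replicate 8 (0.109), while the difference stayed between 1.56 and 2.01. Pcolce shares 1282 bases with Fbxo24 on the same strand in the annotation, so reads there can belong to either gene.

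**Figure D5:**
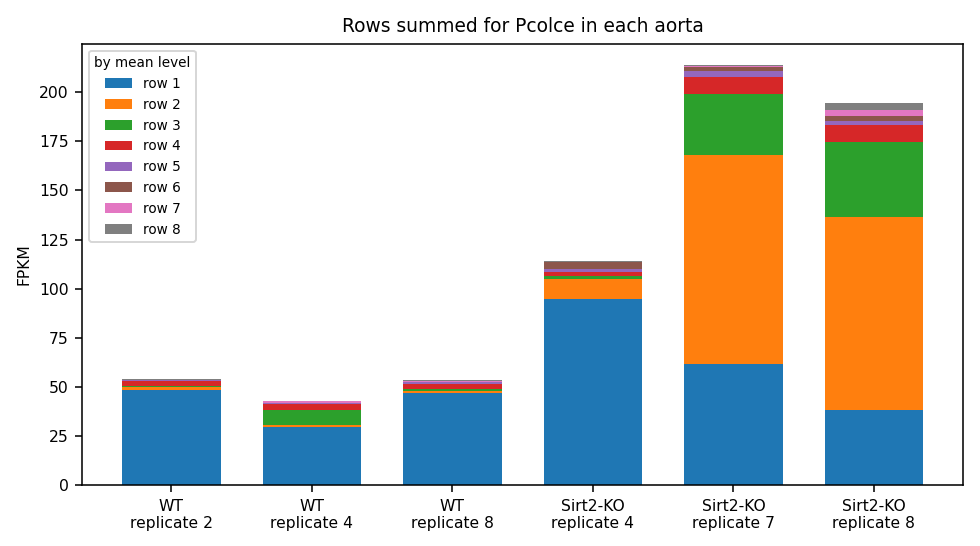
FPKM of the 8 rows that were summed for Pcolce in each aorta, stacked and ordered by mean level. Row 1 makes up most of the sum in the 3 WT aortas and in Sirt2-KO replicate 4, and row 2 reaches 106 and 98.3 FPKM in Sirt2-KO replicates 7 and 8.

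Lysyl oxidases, which oxidise lysines so that collagen and elastin cross-link, differed among themselves. Loxl1, best known for elastic fibres, was at 99.8, 63.2 and 105 FPKM in the WT aortas and 131, 161 and 131 FPKM in the Sirt2-KO aortas. The groups lay apart, with a log2 difference of 0.68 (SE 0.213) that did not pass (adjusted p = 0.123). Loxl2, whose targets include type IV collagen, was at 6.94 ± 0.981 FPKM in WT and 10.5 ± 3.40 FPKM in Sirt2-KO and overlapped (0.50, adjusted p = 0.227). Lox, the founding enzyme, and Loxl3 showed little difference, at -0.03 (SE 0.189) and 0.01 (SE 0.158), and both changed sign with the scaling or with the aorta left out.

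The hydroxylases act inside the cell on the nascent chains. Plod1, a lysyl hydroxylase of the helix, was at 33.7, 35.5 and 30.5 FPKM in the WT aortas and 30.4, 28.1 and 27.9 FPKM in Sirt2-KO, apart by a narrow margin (log2 difference -0.20, SE 0.111, adjusted p = 0.298). Plod3, which also adds sugars to hydroxylysine, was at 44.3 ± 0.954 FPKM in WT and 46.9 ± 4.84 FPKM in Sirt2-KO (0.07, SE 0.116, adjusted p = 0.692). Plod2, the hydroxylase of the chain ends, differed by -0.43 (adjusted p = 0.404). The prolyl hydroxylase subunits P4ha1 and P4ha2, which make the hydroxyproline that steadies the helix, differed by -0.28 (adjusted p = 0.451) and -0.56 (adjusted p = 0.203). Serpinh1 encodes HSP47, the chaperone of the folded helix, and was the highest of the 11, at 335, 232 and 219 FPKM in the WT aortas and 423, 345 and 279 FPKM in the Sirt2-KO aortas. WT replicate 2 stood above Sirt2-KO replicate 8, and the log2 difference was 0.42 (SE 0.224, adjusted p = 0.279).

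Sirt2-KO replicate 8 was the lowest of its group in 10 of the 11 enzymes and helpers and in all 6 basement membrane genes. Sirt2-KO replicate 7 was the highest of its group in all 7 fibrillar genes and all 10 other collagens. The contrast between classes was therefore present in each Sirt2-KO aorta but to different degrees, with fibrillar over type IV sums of 2.73, 4.76 and 4.17 in replicates 4, 7 and 8 against 1.76, 1.11 and 1.94 in WT replicates 2, 4 and 8.

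Other steps of collagen production and turnover were read from gene lists. The calls in each list stand beside 2.29% of all tested genes called higher and 0.616% called lower. Of 25 biosynthesis and secretion genes analysed, 2 rose and 0 fell, with a median log2 difference of 0.12, and both encode proteins of procollagen trimming. Adamts2, the N-propeptide peptidase, stood at 23.6 ± 1.71 FPKM in WT and rose to 58.3 ± 15.5 FPKM (1.24 on the log2 scale, adjusted p = 0.0285). Pcolce2, the relative of Pcolce, rose from 7.002 ± 2.40 to 28.9 ± 9.51 FPKM (1.88, adjusted p = 0.0296). Bmp1, the proteinase that removes the C-propeptide, was at 23.3 ± 2.49 FPKM in WT and 30.4 ± 5.07 FPKM in Sirt2-KO and did not pass (0.36, adjusted p = 0.202). At an unadjusted p under 0.05, 7 genes of this list were higher and 4 lower, where 12.4% of all tested genes were higher and 12.4% lower.

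The turnover list holds both enzymes that break collagen down and inhibitors of metalloproteinases. All 10 turnover genes analysed had higher means in Sirt2-KO (median 0.81 on the log2 scale). The inhibitor genes Timp1, Timp2 and Timp3 differed by 0.85, 0.74 and 0.10 and did not pass (adjusted p = 0.0894, 0.0567 and 0.659). Of the 10 genes, 2 rose. These were Ctsk, the collagen-degrading cathepsin K (10.9 ± 2.10 to 25.6 ± 6.07 FPKM, adjusted p = 0.0420), and Pepd, the peptidase that recycles proline from collagen fragments (18.6 ± 3.12 to 45.6 ± 6.89 FPKM, adjusted p = 0.0203). Of 6 collagen receptors, 4 were lower and 2 higher, with 1 called lower and 0 called higher. Itga1, the integrin subunit that binds type IV collagen, fell from 20.6 ± 3.37 to 10.2 ± 1.22 FPKM (-0.94, adjusted p = 0.0310). Its partner Itgb1 was at 363 ± 64.9 and 228 ± 57.9 FPKM and did not pass (-0.68, adjusted p = 0.135). The low integrin subunit gene Itga11 lay apart in the higher direction, with means of 1.10 FPKM in WT and 3.05 FPKM in Sirt2-KO (0.90, adjusted p = 0.194).

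Proteins that coat or join collagen fibrils were represented by 14 genes, of which 3 rose and 0 fell (median 0.43). Fmod, a small proteoglycan that guides fibril assembly and cross-linking, rose from 12.3 ± 3.57 to 80.7 ± 31.4 FPKM (2.56, adjusted p = 0.0199). Dpt, dermatopontin, rose from 48.5 ± 7.65 to 186 ± 59.3 FPKM, and Comp, a glycoprotein that binds fibrillar collagens, from 22.2 ± 3.54 to 73.6 ± 19.1 FPKM (adjusted p = 0.0229 and 0.0210). Decorin (Dcn, 1.23) and lumican (Lum, 1.80) were higher and did not pass (adjusted p = 0.0960 and 0.0581). In all, 10 of the 14 were higher and 4 lower, among them Prelp, which lay apart (-0.28, adjusted p = 0.254).

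Of 14 basement membrane partners, 2 fell and 1 rose (median -0.19). Lama5, a laminin chain, fell from 32.7 ± 2.88 to 18.0 ± 3.29 FPKM (-0.84, adjusted p = 0.0400), and the proteoglycan agrin (Agrn) from 18.8 ± 1.001 to 11.7 ± 1.20 FPKM (-0.64, adjusted p = 0.0448). Smoc2, a calcium-binding matrix protein, rose from 29.0 ± 2.27 to 113 ± 47.1 FPKM (1.82, adjusted p = 0.0381). The perlecan gene Hspg2 (-0.50, adjusted p = 0.154) and the laminin chain gene Lamb2 (-0.44, adjusted p = 0.147) did not pass. Nor did Nid1 (0.73, adjusted p = 0.101) and Lamb1 (0.79, adjusted p = 0.123), which lay apart in the higher direction. In all, 9 of the 14 partners were lower and 5 higher. The calls of Agrn, Ctsk and Smoc2 were lost in 13, 10 and 10 of the 17 alternatives, among them the rescaling of columns to an equal sum, median-of-ratios scaling and the fit without a trend. Of the 11 calls in these lists, 8 remained with either of those scalings, 7 without the trend and 5 when each gene was read from its highest row. They also depended on the aortas included: 0 remained without WT replicate 2, without Sirt2-KO replicate 7 or without Sirt2-KO replicate 8, against 9 without Sirt2-KO replicate 4 and 6 without either of the other WT aortas.

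Marker levels of the cells in the samples also differed with genotype. All 11 adventitial fibroblast markers analysed were higher in Sirt2-KO, 4 of them called, with a summed level of 815 to 1363 FPKM in WT and 1891 to 3457 FPKM in Sirt2-KO. Sirt2-KO replicate 7, with the highest fibroblast sum, was the highest of its group in all fibrillar and other collagens, whereas WT replicate 4, with the highest fibroblast sum in WT, was the lowest WT aorta in 5 of 7 fibrillar genes. All 12 smooth muscle markers were lower, 0 of them called and 4 at an unadjusted p under 0.05, with sums of 9940 to 18332 FPKM in WT and 8536 to 14936 FPKM in Sirt2-KO. The lowest smooth muscle sum of each genotype was in WT replicate 4 and Sirt2-KO replicate 8, which were the lowest of their groups in 5 and all 6 of the basement membrane genes. Endothelial markers summed to 418 to 711 FPKM in WT and 353 to 441 FPKM in Sirt2-KO, with 9 of 11 lower and 0 called by limma (3 at an unadjusted p under 0.05). Over all tested genes 2.91% were called, and 24.8% had an unadjusted p under 0.05, 12.4% in each direction. In these 3 lists every marker analysed was above 0 in every aorta. In bulk tissue, fewer cells of a type and less RNA per cell cannot be told apart, and the part of cell makeup in the collagen differences was not tested.

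Macrophage markers summed to 156 to 417 FPKM in WT and 459.5 to 759 FPKM in Sirt2-KO (10 of 10 higher, 1 called), and white adipocyte markers to 639.8 to 2274 FPKM and 4181 to 6214 FPKM (7 of 8 higher, 2 called). Schwann cell markers summed to 88.0 to 188 FPKM in WT and 48.9 to 50.4 FPKM in Sirt2-KO (6 of 6 lower, 2 called), the same direction as the nerve-associated Col28a1. Brown adipocyte markers overlapped, at 88.1 to 914 FPKM and 314 to 742 FPKM. Of 9 cartilage markers only Acan and Chad had values, at most 12.6 FPKM together, and 0 of 5 mesothelial markers were analysed.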

How the data were processed

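Per the file headers, the authors deposited FPKM values, 1 column for each of the 6 samples. The submitters' processing notes name Bowtie 0.12.2 and mm9 with no role; no quantifier, annotation, filter or strand setting is given there. Groups and replicate numbers came from the sample titles. Of 14083 rows, 39 with a date for a name were left out, and rows of the same gene were summed. No row had a variance over the 6 samples under 1.00003, so steady low transcripts are missing and a sum can be partial.

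The 8605 genes whose mean was 1 FPKM or more were fitted on log2(FPKM + 1) by limma 3.58.1 under R 4.3.3 (trend, two-sided), and Benjamini-Hochberg adjustment covered all of them. Ratios of means are folds. The labels do not say how samples were drawn beyond 3 mice per group. The steps were tested on simulated data. Annotation and sequences are of GRCm38, used for names, overlaps and upstream sequence only. Members, classes and lists were chosen with earlier results of these data known. Named genes were the called members, those whose groups lay apart, the 4 highest of each class, and called list genes. Bmp1, Timp1, Timp2, Timp3, Itga11, Itgb1, Dcn, Lum, Prelp, Hspg2, Lamb2, Nid1, Lamb1 and the remaining members are given besides. Alternatives were other pseudocounts, filters, scalings, spread models, arrayWeights, the highest row of each gene, a block for the replicate number, and the omission of each mouse. Figures were drawn with matplotlib 3.10.9.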

Additional observations from a re-analysis of the deposited data

How the results depend on the processing

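Over 17 alternatives, 27 of the 34 genes kept the sign of their difference. With 1 member called higher, 0 lower and 250 genes called in all, limma's arrayWeights gave 7, 2 and 1114, and only the highest row of each gene gave 0, 0 and 151. Leaving out each mouse gave 0 to 3 members higher, 0 to 1 lower and 28 to 344 genes; the fibrillar median ranged from 0.20 to 0.75, lowest without WT replicate 4. With the highest row alone the median of the other collagens was 0.57. With type IV chains alone the basement membrane median was -0.75. The replicate number as a block called 0 members and 3 genes, and Sirt2 (-3.63, adjusted p = 0.0792) and Pcolce (1.62, adjusted p = 0.228) were lost; only numbers 4 and 8 are in both genotypes, and deviations of those samples correlated at -0.0493 and -0.452, so the numbers give no pairing. The genes that changed sign had small differences. Col15a1 was at 0.055 with median-of-ratios scaling and 0.24 with the block, Lox at 0.032 with that scaling, Loxl3 at -0.034 with columns rescaled to an equal sum and -0.051 with the block, and Col8a1 at 0.0020 with arrayWeights. With a mouse left out Col12a1 ranged from -0.069 to 0.55, Col15a1 from -0.53 to 0.38, Col5a2 from -0.33 to 0.068, Col6a2 from -0.046 to 0.38, Lox from -0.23 to 0.11 and Loxl3 from -0.11 to 0.11. The cause was not tested. Depth is unknown, so the precision of low genes such as Col8a2 and Col6a6 rests on 3 mice each.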
